A study of Mus musculus with 12 samples.

Results

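Transcripts of 10 chemokine ligands, Ccl8, Ccl2, Ccl3, Ccl4, Ccl6, Ccl9, Cxcl2, Cxcl15, Pf4 and Ppbp, were followed in leukaemia cells sorted from mouse bone marrow. They are 10 of the 24883 gene entries in the expression tables, and each had 1 entry. They were picked by name with their expression values across the groups already known, so those values choose the set and are given as a description. A count of these ligands past the threshold of a fit describes that fit and supports nothing about them. The cells came from mice with acute myeloid leukaemia driven by MLL-AF9, a fusion oncoprotein, and all groups carried this fusion and were sorted by GFP fluorescence. The vehicle group held 5 mice. The iCT group held 3 mice taken 3 days after induction chemotherapy with doxorubicin, a topoisomerase poison, and cytarabine, a nucleoside analogue. The relapse group held 4 mice taken 10 days after the same drugs. No source used here gives the age or sex of the mice, the promoter that drives the fusion and GFP, or the number of leukaemia clones.

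Chemokines are small secreted proteins that bind heparan sulphate on cell surfaces and signal through G protein-coupled receptors to direct the movement of leukocytes. They are classed by the spacing of the cysteines near the amino terminus: in CC chemokines these cysteines are adjacent, and in CXC chemokines another residue lies between them. CXC chemokines with the tripeptide glutamate-leucine-arginine (ELR) before the cysteines act on the receptor CXCR2 and attract neutrophils. In bone marrow, chemokines from stroma, macrophages and myeloid cells retain or release haematopoietic cells.

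The coding sequences show the class of each ligand, and are printed because the CC and CXC members are described in separate groups below. In each window of the GENCODE M21 coding sequence, 5′ to 3′, the capitals mark the codons of the leading pair of cysteines. In the 6 CC members these codons were adjacent.
Ccl8: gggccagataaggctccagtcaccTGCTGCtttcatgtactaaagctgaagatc
Ccl2: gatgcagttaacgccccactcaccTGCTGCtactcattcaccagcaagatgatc
Ccl3: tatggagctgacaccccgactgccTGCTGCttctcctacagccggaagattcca
Ccl4: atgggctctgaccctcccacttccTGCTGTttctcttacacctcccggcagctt
Ccl6: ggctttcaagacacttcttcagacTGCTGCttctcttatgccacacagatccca
Ccl9: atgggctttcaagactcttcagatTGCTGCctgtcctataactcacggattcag
The 4 CXC members had 1 codon between them. In Cxcl2, Cxcl15 and Ppbp the ELR codons stand directly before the capitals, and in Pf4 they do not.
Cxcl2: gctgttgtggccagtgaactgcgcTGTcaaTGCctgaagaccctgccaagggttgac
Cxcl15: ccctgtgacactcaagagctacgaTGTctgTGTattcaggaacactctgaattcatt
Ppbp: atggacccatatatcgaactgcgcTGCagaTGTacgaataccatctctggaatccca
Pf4: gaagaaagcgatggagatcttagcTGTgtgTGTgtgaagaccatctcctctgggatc
Among the 10 coding sequences the most alike pairs were Ccl3 and Ccl4, with 68.1% identical columns in a pairwise alignment, and Ccl6 and Ccl9, with 64.6%. The longest stretch shared by the transcripts of Ccl6 and Ccl9 was 25 bases, and that of Ccl3 and Ccl4 was 9 bases. No source used here says how reads that fit both genes of a pair were divided.

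The genes lie in chemokine clusters on 2 chromosomes (GRCm38). On chromosome 11, Ccl2 (82035577 to 82037452) and Ccl8 (82115185 to 82116799) share a cluster with Ccl7, Ccl11, Ccl12 and Ccl1. Further along are Ccl9 (83572917 to 83578636), Ccl6 (83587886 to 83593087), Ccl3 (83647843 to 83649378) and Ccl4 (83662584 to 83664683), with Ccl5 beside them. On chromosome 5, Ppbp (90768518 to 90770060) lies 2.4 kb before Pf4 (90772435 to 90773383). Cxcl15 (90794534 to 90803067) and Cxcl2 (90903899 to 90905938) follow in the same cluster, with Cxcl5, Cxcl3 and Cxcl1 among them.

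Values are FPKM, fragments per kilobase of transcript, scaled to the mapped fragments of the library, so levels of different genes may be set side by side. Differences between groups were fitted with limma on log2(FPKM + 1), a scale that understates the change of low genes, with 1 model over all 12 libraries. The fit took genes that reached 1 FPKM in 3 or more libraries, and a gene was called where its Benjamini-Hochberg adjusted p over all 11019 tested genes was under 0.05. The fit called 1060 genes (9.62%) in iCT against vehicle, 0 genes (0%) in relapse against vehicle, where 1604 had an unadjusted p under 0.05, and 1071 genes (9.72%) in relapse against iCT. Of the calls in iCT against vehicle 365 were higher and 695 lower, a split of 496 and 615 after median-of-ratios scaling and of 526 and 570 after quantile normalization. The calls in relapse against iCT were 729 higher and 342 lower, against 490 and 514, and 431 and 420, under the same scalings, and the median log2 change of all genes moved from 0.16 to 0.06 and 0.02. The library of iCT mouse 1 stood apart in depth. Only 10479 of its genes were above 0, where other libraries had 12439 to 14580. For genes at 1 FPKM or more, the intervals in its table implied a median of 13.8 fragments, and those of the other libraries 43.9 to 292.5. Each library came from a separate mouse, and in such bulk samples fewer cells of a type and less RNA per cell cannot be told apart.

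Of the 10 ligands, 8 passed the filter, and Cxcl2 and Ppbp did not. In iCT against vehicle 4 of the 8 were past the threshold, Ccl8, Pf4 and Ccl9 higher and Ccl3 lower, beside the 9.62% of all tested genes. In relapse against iCT 4 of the 8 were past it, Ccl3 higher and Ccl8, Pf4 and Cxcl15 lower, beside 9.72%. In relapse against vehicle 0 of the 8 were past it by limma, with 3 at an unadjusted p under 0.05, beside 0% of all genes. The median log2 change of the 8 was 0.79 in iCT against vehicle, -0.20 in relapse against vehicle and -1.50 in relapse against iCT, and over all tested genes it was -0.08, 0.06 and 0.16. Because the values chose the genes, nothing is read from these counts. Ccl9 left the count in iCT against vehicle without any 1 library other than vehicle mouse 1 and iCT mouse 1. Pf4 passed the filter with 3 iCT and 2 vehicle libraries, and Ccl2 with 2 iCT libraries and 1 vehicle library, so these could enter the fit largely through the group in which they were high.

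**Figure D1:**
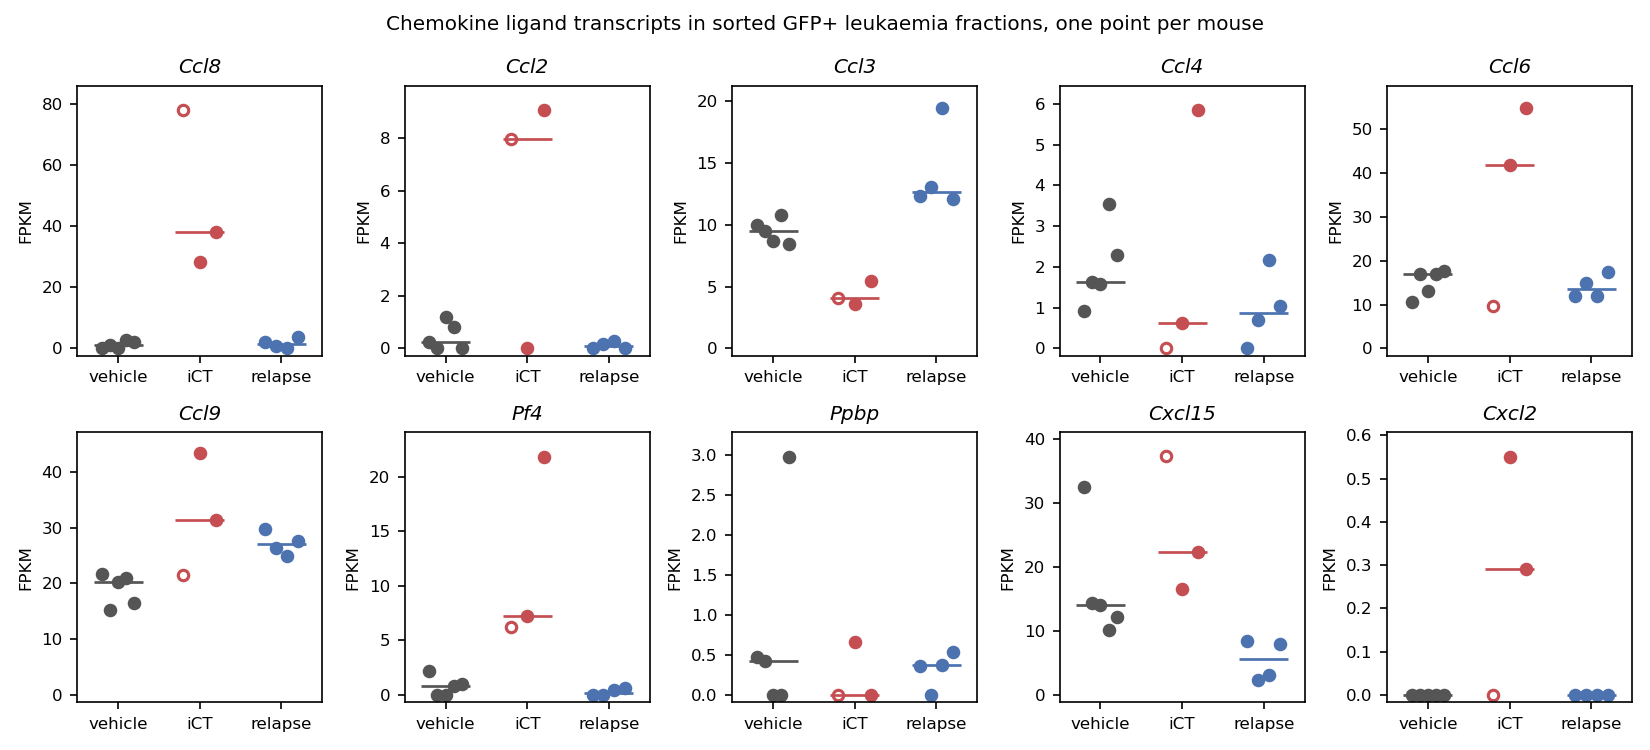
FPKM (linear axes, each panel on its own scale) of the 10 ligands, with 1 point per mouse in the vehicle (n = 5), iCT (n = 3) and relapse (n = 4) groups; lines are group medians and the open point is the shallow library of iCT mouse 1. Ccl8 and Pf4 lie above all other libraries in the 3 iCT mice, and Ccl3 lies below them.

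Ccl8 encodes monocyte chemotactic protein 2, which in the mouse signals through CCR8. It was listed at 0, 1.20, 0, 2.62 and 2.12 FPKM in vehicle mice 1 to 5. In iCT mice 1 to 3 it stood at 77.8, 28.3 and 37.9 FPKM, and in relapse mice 1 to 4 at 2.03, 0.68, 0 and 3.85. All iCT libraries were above every vehicle and relapse library, and the vehicle and relapse groups overlapped. The log2 change was 4.56 (SE 0.57) in iCT against vehicle, -4.33 (SE 0.59) in relapse against iCT and 0.23 (SE 0.52) in relapse against vehicle. The highest value, in iCT mouse 1, was also the least precise of the 3, with a deposited interval of 27.6 to 128.0 FPKM, the width that about 9.6 fragments would give. In iCT mice 2 and 3 the intervals were 22.3 to 34.3 and 30.0 to 45.9 FPKM, and the change against vehicle without iCT mouse 1 was 4.15.

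Ccl2, monocyte chemotactic protein 1 and the main ligand of CCR2, was listed at 0.23, 0, 1.21, 0.81 and 0 FPKM in the vehicle mice. It stood at 7.96, 0 and 9.06 FPKM in iCT mice 1 to 3, and at 0, 0.17, 0.27 and 0 in the relapse mice. Thus 2 of 3 iCT libraries were above every other library and the third was listed at 0. The value in iCT mouse 1 had the interval of about 2.0 fragments, 0 to 19.2 FPKM. The log2 change was 1.71 (SE 0.61) in iCT against vehicle, and 2.79 without iCT mouse 2. For relapse against iCT it was -2.02 (SE 0.64), and -3.10 without that mouse.

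The neighbours of Ccl8 and Ccl2 on chromosome 11 differed in whether they were detected. Ccl12, a CCR2 ligand lying 11.8 kb before Ccl8, was listed at 0, 2.59 and 4.58 FPKM in iCT mice 1 to 3, at 1.12 in vehicle mouse 2 and at 0 in every other library. Ccl7, monocyte chemotactic protein 3, which lies 8.3 kb after Ccl2, was listed at 0, 0.97 and 4.05 FPKM in the iCT mice and at 0 in all vehicle and relapse mice. Ccl11 and Ccl1 were listed at 0 in all 12 libraries. Ccl8 was the most abundant ligand of this cluster in each iCT library. It also had the highest listed value in vehicle mice 2, 4 and 5 and relapse mice 1, 2 and 4. Those values had the intervals of about 1.0 to 5.0 fragments, so the order in these mice is not resolved.

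Ccl3, macrophage inflammatory protein 1 alpha, binds CCR1 and restrains the cycling of haematopoietic progenitors. Its level was 10.0, 9.51, 8.70, 10.8 and 8.46 FPKM in vehicle mice 1 to 5, 4.09, 3.60 and 5.41 in iCT mice 1 to 3, and 12.3, 13.01, 19.4 and 12.1 in relapse mice 1 to 4. The 3 groups did not overlap: all iCT libraries were the lowest and all relapse libraries the highest. Group means were 9.49 ± 0.95 (SD, n = 5), 4.37 ± 0.94 (n = 3) and 14.2 ± 3.48 FPKM (n = 4). The log2 change was -0.98 (SE 0.18) in iCT against vehicle, 1.49 (SE 0.18) in relapse against iCT and 0.51 (SE 0.16) in relapse against vehicle. The iCT mouse 1 value, with an interval of 0 to 12.3 FPKM, rested on the equivalent of 1.0 fragment. The next fewest were about 7.0, in vehicle mouse 3, with an interval of 2.12 to 15.3 FPKM. Intervals of vehicle and relapse libraries overlapped, as in vehicle mouse 4 (7.31 to 14.2) and relapse mouse 4 (7.71 to 16.6). The change in iCT against vehicle was -0.95 without iCT mouse 1.

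Ccl4, macrophage inflammatory protein 1 beta, lies 13.2 kb from Ccl3 and by the listed values did not share its pattern of group ranges. It was listed at 0.92, 1.63, 1.59, 3.54 and 2.29 FPKM in vehicle, at 0, 0.63 and 5.84 in iCT and at 0, 0.69, 2.17 and 1.04 in relapse. The groups overlapped in every comparison. Values above 0 had the intervals of about 1.0 to 9.6 fragments in vehicle, 3.0 and 21.0 in iCT and 2.0 to 6.0 in relapse. At this depth a pattern like that of Ccl3 could be missed. The log2 changes of Ccl4 were -0.36 (SE 0.54), -0.30 (SE 0.57) and -0.66 (SE 0.50) in iCT against vehicle, relapse against iCT and relapse against vehicle. Leaving out iCT mouse 1 turned the sign of the change in iCT against vehicle, to 0.22.

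Ccl6 and Ccl9 are rodent CC chemokines that bind CCR1 and are made by myeloid cells. Ccl9, also known as macrophage inflammatory protein 1 gamma, was the most abundant of the 10 by its median in vehicle and relapse. Its level was 21.6, 15.2, 20.2, 20.9 and 16.4 FPKM in vehicle, 21.5, 43.4 and 31.4 in iCT and 29.8, 26.4, 24.9 and 27.6 in relapse. Every relapse library was above every vehicle library, while iCT mouse 1 lay just inside the vehicle range and iCT mice 2 and 3 above it. Means were 18.9 ± 2.90, 32.1 ± 10.9 and 27.2 ± 2.08 FPKM. Its log2 change was 0.69 (SE 0.19) in iCT against vehicle, 0.51 (SE 0.18) in relapse against vehicle and -0.18 (SE 0.20) in relapse against iCT.

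Ccl6 stood at 10.6, 16.9, 13.02, 17.1 and 17.7 FPKM in vehicle, at 9.74, 41.8 and 54.8 in iCT and at 11.9, 15.0, 12.04 and 17.5 in relapse. The shallow iCT library held the lowest value of all 12 and the other iCT libraries the highest. Its means were 15.1 ± 3.13, 35.4 ± 23.2 and 14.1 ± 2.68 FPKM. Its log2 change was 0.90 (SE 0.41) in iCT against vehicle and -0.98 (SE 0.43) in relapse against iCT. Without iCT mouse 1 these became 1.63 and -1.71. In relapse against vehicle the change was -0.08 (SE 0.38).

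Pf4 encodes platelet factor 4, a CXC chemokine stored in the alpha granules of megakaryocytes and platelets. It was listed at 2.18, 0, 0, 0.84 and 1.02 FPKM in vehicle, at 6.23, 7.22 and 21.8 in iCT and at 0, 0, 0.43 and 0.62 in relapse. All iCT libraries were above all others. The fitted log2 change was 2.76 (SE 0.44) in iCT against vehicle, -3.17 (SE 0.46) in relapse against iCT and -0.41 (SE 0.40) in relapse against vehicle. The 6.23 FPKM of iCT mouse 1 had the interval of 1.0 fragment, 0 to 18.7 FPKM. The change in iCT against vehicle was 3.06 without it.

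Ppbp, pro-platelet basic protein, is the precursor of another alpha granule chemokine and the neighbour of Pf4. It was listed at 0.48, 0.42, 0, 0 and 2.98 FPKM in vehicle, at 0, 0.66 and 0 in iCT and at 0.36, 0, 0.38 and 0.54 in relapse. Only vehicle mouse 5 reached an FPKM of 1, and the groups overlapped. In iCT mice 1 and 3, where Pf4 was at 6.23 and 21.8 FPKM, Ppbp was listed at 0. In iCT mouse 2 its 0.66 FPKM was above 4 of 5 vehicle libraries and all relapse libraries, and values this low at this depth allow no statement on groups.

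The megakaryocyte and platelet markers were measured beside these values. Their summed level over 12 genes was 5.54 to 8.73 FPKM in vehicle, 5.82 to 19.3 in iCT and 7.51 to 8.83 in relapse, and of the 2 that could be tested, Gp9 and Itgb3, 0 were called by limma in any comparison, with 0, 1 and 1 at an unadjusted p under 0.05 in iCT against vehicle, relapse against vehicle and relapse against iCT. Gp9, a subunit of the platelet receptor for von Willebrand factor, was listed at 0, 2.84 and 3.34 FPKM in the iCT mice and ranged from 1.22 to 3.46 in vehicle. Vwf was at most 0.22 FPKM in any library, and Gp6 was listed at 0 in all iCT and all relapse libraries. Other genes of the list, named after their values were seen, were highest in iCT mouse 1. Gp5, another subunit of that receptor, was 6.02, 0.39 and 0 FPKM in iCT mice 1 to 3 and at most 0.33 in vehicle. Gp1bb was 4.79, 0.15 and 0.73 FPKM, against at most 0.70 in vehicle, and Itga2b, an integrin subunit of megakaryocytes, was 3.72, 0.33 and 0.98, against at most 0.89. The values of mouse 1 had the intervals of about 5.0 fragments for Gp5, 2.2 for Gp1bb and 5.0 for Itga2b. By the listed values Pf4 was highest in iCT mouse 3, though its intervals in mice 1 and 3 overlapped. In iCT mouse 3 Gp5 was listed at 0, and Gp1bb and Itga2b were listed above every vehicle and relapse library. Their intervals there were 0.21 to 1.26 and 0.59 to 1.38 FPKM. The part of these cells in the Pf4 values was not tested.

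Cxcl15, known as lungkine, is an ELR chemokine best known from lung epithelium. Its level was 32.5, 14.3, 14.1, 10.2 and 12.2 FPKM in vehicle, 37.3, 16.5 and 22.4 in iCT and 8.37, 2.28, 3.08 and 8.01 in relapse. All relapse libraries were below every library of the other groups, and vehicle and iCT overlapped. Means were 16.7 ± 9.04, 25.4 ± 10.7 and 5.43 ± 3.20 FPKM. The log2 change was -2.11 (SE 0.44) in relapse against iCT, -1.49 (SE 0.39) in relapse against vehicle and 0.62 (SE 0.42) in iCT against vehicle. Without iCT mouse 1 the change in relapse against iCT was -1.80.

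Cxcl2, macrophage inflammatory protein 2, is an ELR chemokine that recruits neutrophils and an early target of NF-kappaB. It was listed at 0.55 and 0.29 FPKM in iCT mice 2 and 3, with the intervals of about 5.0 and 2.0 fragments, and at 0 in all other libraries. Its cluster neighbours Cxcl1 and Cxcl3, which have the same receptor, were listed at 0 in all 12 libraries. The values of Cxcl2 are too low at this depth for a statement on groups.

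**Figure D2:**
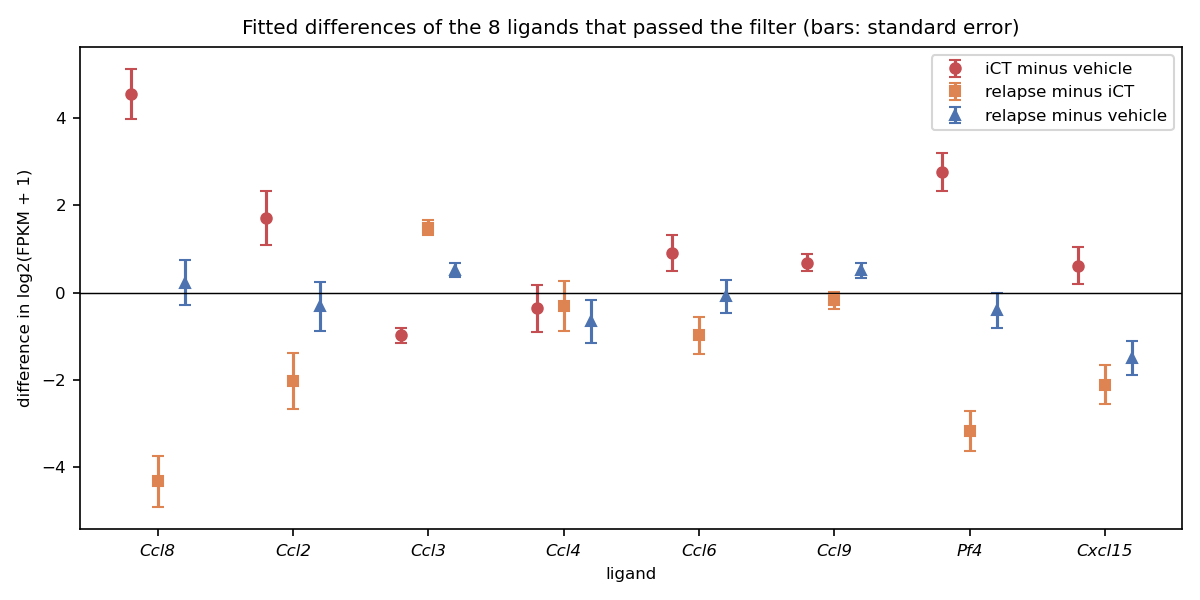
Fitted differences in log2(FPKM + 1) between groups (points) with their standard errors (bars) for the 8 ligands that passed the filter. Ccl8 and Pf4 have the largest differences in iCT against vehicle, 4.56 and 2.76, and opposite ones in relapse against iCT, -4.33 and -3.17; Ccl3 has the reverse signs.

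Seen side by side, the relapse libraries differed from vehicle in the ranges of 3 ligands. Ccl3 and Ccl9 were higher and Cxcl15 lower in every relapse library than in every vehicle library, while Ccl8, Ccl2, Ccl4, Ccl6, Pf4 and Ppbp overlapped and Cxcl2 was listed at 0 in both groups. Of all tested genes 13.7% had ranges that did not overlap in this comparison. In iCT against vehicle the ranges of Ccl8, Pf4 and Ccl3 did not overlap, beside 16.1% of all tested genes. Those of Ccl8, Pf4, Ccl3 and Cxcl15 did not overlap in relapse against iCT, beside 23.3%. These shares carry no more weight than the values that chose the genes. The comparisons share libraries, so they are not independent of each other.

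The order of the levels changed between groups. By median FPKM the vehicle order was Ccl9, Ccl6, Cxcl15 and Ccl3, at 20.2, 16.9, 14.1 and 9.51, and each of these overlapped with the next. All 4 lay above Ccl4, Ccl8, Pf4, Ppbp and Ccl2, whose medians were 1.63 or less and whose neighbouring ranges overlapped, and Cxcl2 was listed at 0. In iCT the order was Ccl6, Ccl8, Ccl9 and Cxcl15, at 41.8, 37.9, 31.4 and 22.4, with overlapping ranges. Ccl2, Pf4 and Ccl3 followed at 7.96, 7.22 and 4.09, and the ranges of Ccl2 and Pf4 overlapped. The medians of Ccl2 and Ccl3 were the values of iCT mouse 1, with the intervals of about 2.0 and 1.0 fragments. The order of Ccl2, Pf4 and Ccl3 is thus not resolved. In relapse Ccl9 led at 27.0, apart from Ccl6 at 13.5 and Ccl3 at 12.6, which overlapped each other, and Cxcl15 followed at 5.54.

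Summed over the 38 ligand genes examined, the 10 together with 28 others, the level was 78.5 to 99.6 FPKM in vehicle, 176.9 to 224.1 in iCT and 72.9 to 103.4 in relapse. The 10 alone summed to 58.8 to 78.6, 142.6 to 189.0 and 58.2 to 71.3 FPKM. What the 28 others added overlapped between the groups. The 10 were chosen with their group values known, so the higher sums in iCT are a description and say nothing about ligands as a family. Ccl8 made up at most 2.9% of the summed ligand level in a vehicle library and at most 3.7% in relapse. In iCT mice 1 to 3 it made up 44.0%, 15.6% and 16.9%. The 44.0% is of the shallow library, with a Ccl8 interval of 27.6 to 128.0 FPKM. In that library 10 ligand entries were above 0, against 25 and 24 in iCT mice 2 and 3. The share of Ccl3 was 9.3% to 11.8% in vehicle, 2.0% to 2.4% in iCT and 11.7% to 24.0% in relapse. Ccl9 made up 15.2% to 25.8%, 12.2% to 23.9% and 26.7% to 40.9%.

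**Figure D3:**
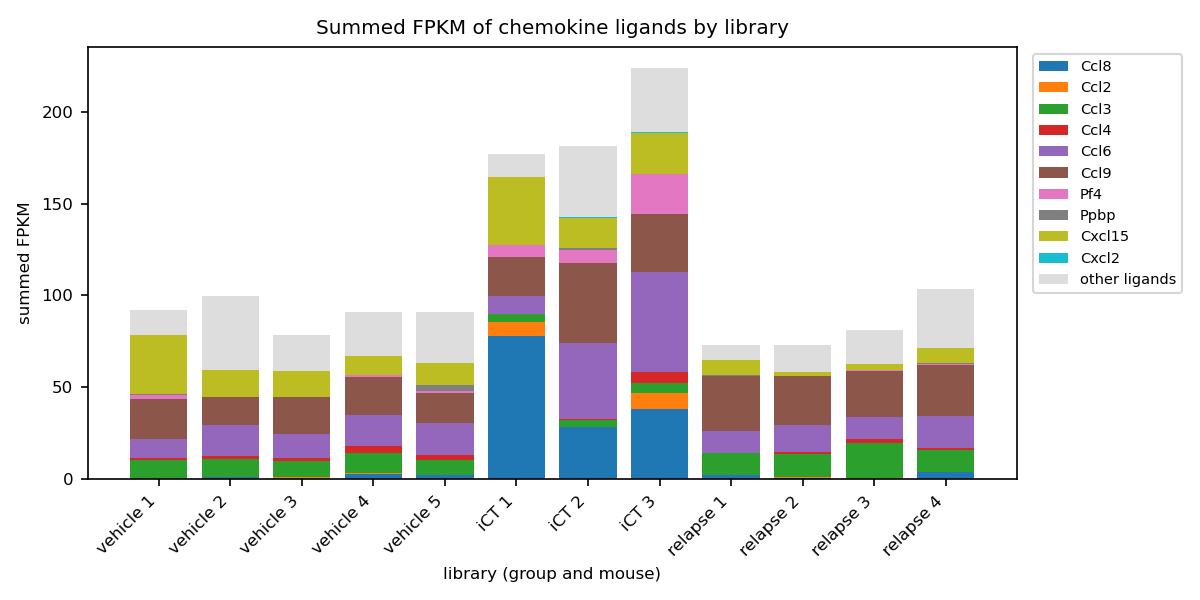
Summed FPKM of chemokine ligands in each library (bars, linear axis from 0), divided into the 10 ligands and all others. The 3 iCT libraries sum to 176.9 to 224.1 FPKM, above the 72.9 to 103.4 of all vehicle and relapse libraries. Ccl8 adds 77.8, 28.3 and 37.9 FPKM to the libraries of iCT mice 1 to 3. Its value in the shallow library of mouse 1 has an interval of 27.6 to 128.0 FPKM. The 10 ligands were chosen with their group values known, and the part of all others overlaps between the groups.

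Among the 28 other ligands only 8 passed the filter, 4 CC and 4 of the other classes. Ccl27a, a ligand of CCR10, was listed at 3.50, 4.13, 3.98, 2.86 and 4.02 FPKM in vehicle, 0, 1.02 and 0.82 in iCT and 2.47, 2.83, 1.40 and 1.40 in relapse. It fell in iCT against vehicle by limma (log2 change -1.60, SE 0.25, adjusted p = 0.00341), where every iCT library was below every vehicle library. Its rise in relapse against iCT (0.94, SE 0.27, adjusted p = 0.0437) was lost without any 1 library other than iCT mice 2 and 3, at adjusted p of 0.054 to 0.11.

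Cxcl16, a membrane-anchored chemokine of macrophages and the ligand of CXCR6, was above 1 FPKM in the iCT libraries only. It was listed at 7.49, 1.54 and 1.81 FPKM in iCT mice 1 to 3, and between 0.22 and 0.41 in vehicle and 0.05 and 0.64 in relapse. The limma log2 change was 1.59 (SE 0.33, adjusted p = 0.0141) against vehicle, and -1.58 (SE 0.35, adjusted p = 0.0167) in relapse against iCT. It passed the filter through the 3 iCT libraries alone and so had to be higher there, and its fit is given as a description. Without any 1 of these libraries it was not tested.

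Cxcl10, Ccl5 and Cxcl12 had the highest mean levels of the other ligands, and none was called in any comparison. Cxcl10, an interferon-induced ligand of CXCR3, ranged from 1.72 to 15.0 FPKM in vehicle, from 0 to 11.8 in iCT and from 2.22 to 9.80 in relapse. Ccl5, a ligand of CCR1 near Ccl9 on chromosome 11, ranged from 0 to 7.17, 0 to 7.30 and 0 to 12.3 FPKM. Cxcl12, the ligand of CXCR4 made by marrow stroma, ranged from 1.56 to 7.43, 3.86 to 6.25 and 0.37 to 3.37 FPKM. In relapse against vehicle 0 of these 8 ligands were called by limma, with 1 at an unadjusted p under 0.05.

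The receptors were measured in the same cells. Of 18 conventional receptors 5 passed the filter. In iCT against vehicle Cxcr4, Ccr1 and Ccr2 fell and Cxcr2 rose, beside the 9.62% of all tested genes called. Cxcr4, which holds progenitors in the marrow through CXCL12, had the highest level of all receptors. It fell from 167.3 ± 11.3 FPKM (SD, n = 5) in vehicle to 82.0 ± 15.2 (n = 3) in iCT and was 154.1 ± 18.3 (n = 4) in relapse. Its limma log2 change was -1.03 (SE 0.13, adjusted p = 0.000613) in iCT and 0.91 (SE 0.13, adjusted p = 0.00234) in relapse against iCT. All iCT libraries were below all others.

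Ccr1, a receptor for the proteins of Ccl3, Ccl6 and Ccl9, stood at 24.4 to 32.8 FPKM in vehicle, at 3.66, 15.3 and 15.8 in iCT mice 1 to 3 and at 22.2 to 26.7 in relapse. Every iCT library was below every other library. It fell in iCT against vehicle (log2 change -1.40, SE 0.33, limma adjusted p = 0.0223), and by 0.79 without iCT mouse 1 (adjusted p = 0.00431). Its rise in relapse against iCT was 1.20 (SE 0.34, adjusted p = 0.0467), 0.59 without iCT mouse 1 (adjusted p = 0.023), and was lost without any 1 vehicle or relapse library, at adjusted p of 0.055 to 0.11. Ccr2, the receptor for the Ccl2 protein, fell from 10.8 ± 1.57 to 6.25 ± 0.43 FPKM (limma log2 change -0.70, SE 0.16, adjusted p = 0.0223). That call was lost without vehicle mouse 5, at -0.67 and an adjusted p of 0.054.

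Cxcr2, the receptor for ELR chemokines on neutrophils, was 13.7, 6.11 and 13.2 FPKM in the iCT mice and 1.65, 4.33, 5.66, 6.93 and 3.19 in vehicle, so 1 iCT library lay within the vehicle range. Its limma log2 change of 1.19 (SE 0.34, adjusted p = 0.0458) was lost without any 1 library other than vehicle mouse 4 and iCT mouse 2, at adjusted p of 0.056 to 0.14. Ccr8, the receptor for the Ccl8 protein, was listed at 0 in 11 libraries and at 0.25 FPKM in relapse mouse 4. Of the 5 atypical receptors, which bind chemokines without G protein signalling, 1 was tested, Ccrl2, and 0 were called by limma in any comparison, with 0 at an unadjusted p under 0.05. Ccrl2 ranged from 1.71 to 3.49 FPKM in vehicle and 1.62 to 3.79 in relapse. In relapse against vehicle 0 of the 5 tested receptors were called by limma, and 0 had an unadjusted p under 0.05.

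**Figure D4:**
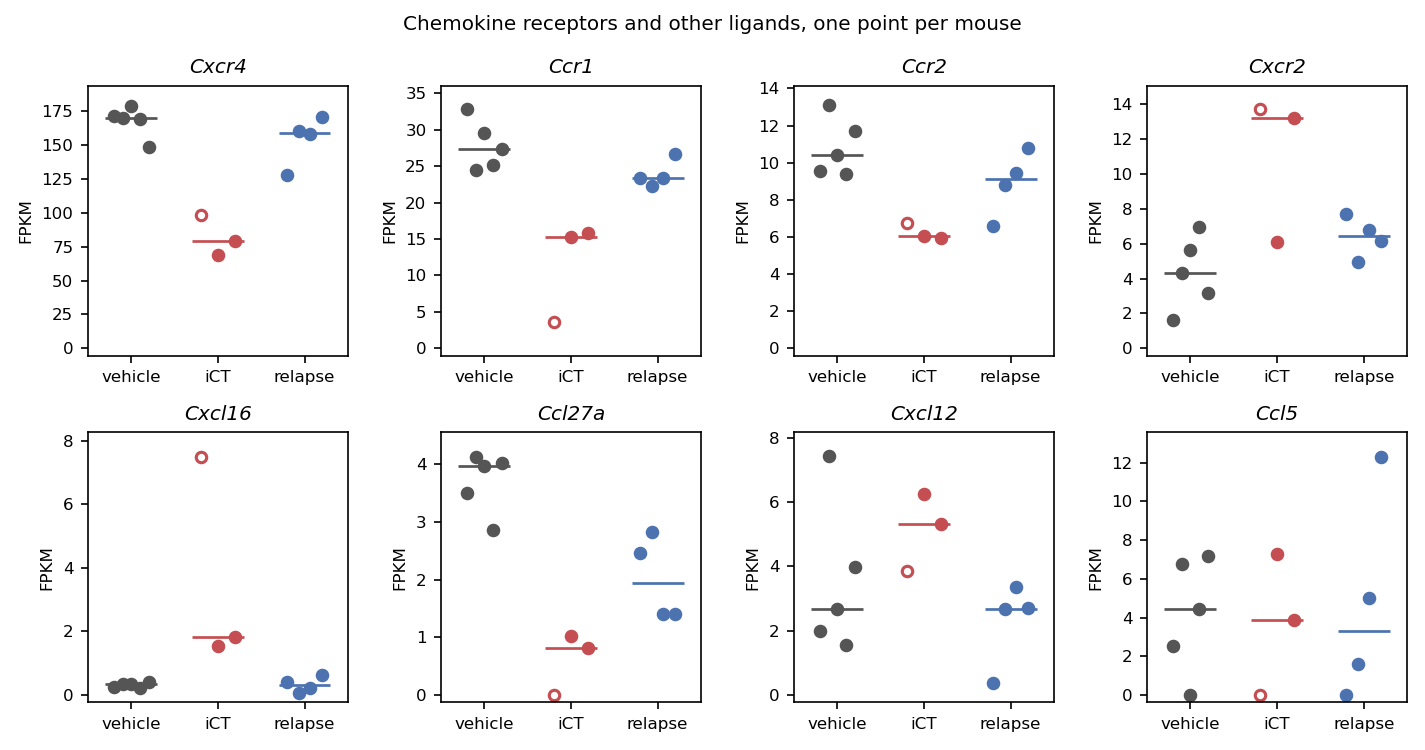
FPKM (linear axes, each panel on its own scale) of 4 chemokine receptors and 4 other ligands, with 1 point per mouse, group medians as lines and iCT mouse 1 as the open point. Cxcr4 stands at 68.5 to 98.4 FPKM in the 3 iCT mice and at 128.0 to 178.5 in all others, and Cxcl16 is above 1 FPKM only in the iCT mice.

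Genes that act after the receptors were examined next. Of 16 tested genes of receptor coupling and desensitisation, 2 fell and 0 rose in iCT against vehicle, beside the 9.62% of all tested genes called, and 3 rose and 0 fell in relapse against iCT, beside 9.72%. Rgs2, which shortens G protein signals, fell from 23.8 ± 1.62 to 12.1 ± 2.10 FPKM in iCT (limma log2 change -0.93, SE 0.12, adjusted p = 0.000835) and was 22.9 ± 0.54 in relapse (0.88, SE 0.12, adjusted p = 0.00191). Pik3cg, the catalytic subunit of the PI3-kinase coupled to these receptors, rose from 11.6 ± 3.41 FPKM in iCT to 22.5 ± 2.60 in relapse (0.93, SE 0.18, adjusted p = 0.00858). Its fall in iCT against vehicle (-0.59, SE 0.17, adjusted p = 0.0454) was lost without any 1 library other than iCT mouse 3, at adjusted p of 0.055 to 0.14. Dock2, which links chemokine receptors to Rac, rose from 35.1 ± 4.97 in iCT to 54.2 ± 7.36 FPKM in relapse (0.61, SE 0.16, adjusted p = 0.0295), and was past the threshold no longer without iCT mouse 1 or 2 or relapse mouse 1 or 4, at adjusted p of 0.056 to 0.081.

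NF-kappaB subunits, regulators and targets were examined because NF-kappaB drives many chemokine genes. By limma 0 of 18 tested were called in iCT against vehicle, with 4 at an unadjusted p under 0.05, beside the 9.62% of all tested genes called. Between iCT and relapse 2 of the 18 rose and 0 fell. This is near the 9.72% of all tested genes called, so nothing is read from the count. Nfkb1, the p105 subunit, rose to 50.6 ± 3.31 FPKM from 37.9 ± 3.45 in iCT (log2 change 0.41, SE 0.11, limma adjusted p = 0.0358), and Tnip1, an inhibitor of the pathway, from 22.0 ± 6.42 to 34.0 ± 2.82 (0.64, SE 0.17, adjusted p = 0.0355). Of the leave-one-out fits 7 of 12 lost the call of Nfkb1, at adjusted p of 0.053 to 0.093, and 6 of 12 that of Tnip1, at 0.055 to 0.093.

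Transcripts of proteins that cut or hold chemokines were measured too. Of 5 tested proteases, 1 rose and 0 fell in iCT against vehicle, and 1 fell and 0 rose in relapse against iCT. These counts, and those of the proteoglycan genes below, stand beside 9.62% and 9.72% of all tested genes called in the 2 comparisons. Mmp9, the gelatinase that cleaves several chemokines, rose to 205.0 ± 117.8 FPKM from 30.2 ± 13.7 in vehicle (limma log2 change 2.69, SE 0.50, adjusted p = 0.00769) and was 61.9 ± 30.3 in relapse. Mmp9 is also an osteoclast and neutrophil marker. Ctsg, cathepsin G of primary granules, fell from 3293.1 ± 555.9 in iCT to 2335.2 ± 245.1 FPKM in relapse (-0.49, SE 0.12, adjusted p = 0.0259), a call lost without relapse mouse 1, 3 or 4, at adjusted p of 0.052 to 0.07. Of 3 tested proteoglycan genes, Sdc3 rose and Cd44 fell in iCT against vehicle, and both went the other way in relapse against iCT. Cd44, a hyaluronan receptor that can carry heparan sulphate, fell from 75.4 ± 5.53 to 45.6 ± 3.64 FPKM (-0.71, SE 0.09, adjusted p = 0.000881) and was 67.4 ± 2.70 in relapse (0.56, SE 0.10, adjusted p = 0.00543). Sdc3, syndecan 3, rose from 0.98 ± 0.32 to 3.71 ± 2.31 FPKM (1.16, SE 0.28, adjusted p = 0.0253) and fell to 0.47 ± 0.31 in relapse (-1.59, SE 0.30, adjusted p = 0.00818). The rise of Sdc3 was lost without vehicle mouse 2 or 5 or iCT mouse 3, at adjusted p of 0.052 to 0.06. When each comparison was fitted on its own groups alone, the calls of Cxcr4, Rgs2 and Cd44 in both comparisons and of Ccl27a and Mmp9 in iCT against vehicle held, at limma adjusted p of 0.00364 to 0.0454. The other calls named among these ligands, receptors and related genes were lost, at 0.052 to 0.158.

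Markers of leukaemia cells and of other cells were measured beside the ligands, and those of macrophages, osteoclasts and in part neutrophils rose in iCT, while those of monocytes and erythroid cells fell in part. All counts of called markers stand beside 9.62% of all tested genes in iCT against vehicle and 9.72% in relapse against iCT. All 8 leukaemia and progenitor markers were detected and tested, with summed levels of 2271.2 to 3447.6 FPKM in vehicle, 2513.8 to 2966.1 in iCT and 2312.7 to 4235.4 in relapse. Most of each sum was Mpo, with means of 2786.2, 2414.4 and 2821.8 FPKM in vehicle, iCT and relapse. Of the 8 markers Kit, the stem cell factor receptor, and Cd34 fell in iCT against vehicle (Kit log2 change -1.79, adjusted p = 8.67e-05) and rose in relapse against iCT. Of 12 tested tissue macrophage markers, 8 rose and 1 fell in iCT against vehicle, and 8 fell and 1 rose in relapse against iCT. The summed level over all 18 was 226.1 to 249.6 FPKM in vehicle, 251.6 to 399.2 in iCT and 151.3 to 207.6 in relapse, and Lyve1 and Marco were listed at 0 in every vehicle library.

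C1qa, a complement subunit of macrophages, stood at 21.9, 34.2 and 74.6 FPKM in iCT mice 1 to 3 and at 1.19 to 6.78 in all other libraries (limma log2 change in iCT against vehicle 2.82, SE 0.37, adjusted p = 0.000974). Folr2, a marker of resident macrophages, was listed at 5.49, 2.20 and 4.92 FPKM in the iCT mice and at most at 0.63 elsewhere. The macrophage marker that went the other way was Adgre1, the F4/80 antigen, which fell from 80.3 ± 6.06 to 22.3 ± 8.88 FPKM (-1.87, SE 0.19, adjusted p = 0.000192). Of the 8 macrophage markers that rose, Folr2 and Mrc1 passed the filter through the iCT libraries alone and so had to be higher there. By the listed values, 3 of these 8 were highest in iCT mouse 1, as Ccl8 was, and 5 in mouse 3, as Pf4 was. Mouse 1 was the shallow library, where Folr2 had the interval of 1.0 fragment, 0 to 16.5 FPKM. The Ccl8 interval there, 27.6 to 128.0 FPKM, held the mouse 3 value, and the Pf4 intervals of mice 1 and 3 overlapped. For these genes the order of the mice is not resolved. Cd5l, a macrophage apoptosis inhibitor that was named after its values were seen, was 19.7, 3.30 and 3.40 FPKM in iCT mice 1 to 3.

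Of 8 tested osteoclast markers, 6 rose and 0 fell in iCT against vehicle. Of these 6, Atp6v0d2, Dcstamp and Ocstamp passed the filter through the iCT libraries alone and so had to be higher there. Their summed level was 32.0 to 86.4 FPKM in vehicle, 267.3 to 1009.0 in iCT and 60.1 to 180.0 in relapse, with Calcr, Dcstamp and Oscar listed at 0 in every vehicle library. Ctsk, the cathepsin K of osteoclasts, stood at 276.8, 75.0 and 61.1 FPKM in iCT mice 1 to 3. Like Ccl8 it was highest in mouse 1 by the listed values, though for Ccl8 that order is not resolved. Relapse mouse 1 had 33.1 FPKM of Ctsk, and 2.03 of Ccl8.

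Of 9 tested monocyte markers, 5 fell and 0 rose in iCT against vehicle, with summed levels of 2324.0 to 2576.5 FPKM in vehicle, 613.9 to 696.4 in iCT and 1020.9 to 2226.1 in relapse. Most of each sum was Ly6c2, with means of 2190.6, 520.4 and 1334.6 FPKM in these groups. Of 14 tested mature neutrophil markers, 4 rose and 0 fell in iCT against vehicle. Their sums were 4131.4 to 15067.3 FPKM in vehicle, 15590.1 to 19938.7 in iCT and 6859.0 to 16077.7 in relapse. S100a8 and S100a9 had the highest levels of the list and made up most of these sums. Among those not called, Retnlg and Ltf had lower means in iCT, 23.2 and 54.4 FPKM, than in vehicle, 117.7 and 101.8. Of the 3 tested markers of T and natural killer cells and the 4 of mast cells and basophils, 0 were called by limma in iCT against vehicle, with 0 and 1 at an unadjusted p under 0.05. Among the others 1 of 3 for B and plasma cells fell, 1 of 5 for stroma and endothelium fell, and 3 of 6 erythroid entries fell. The part of any of these cell types in the ligand values was not tested.

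**Figure D5:**
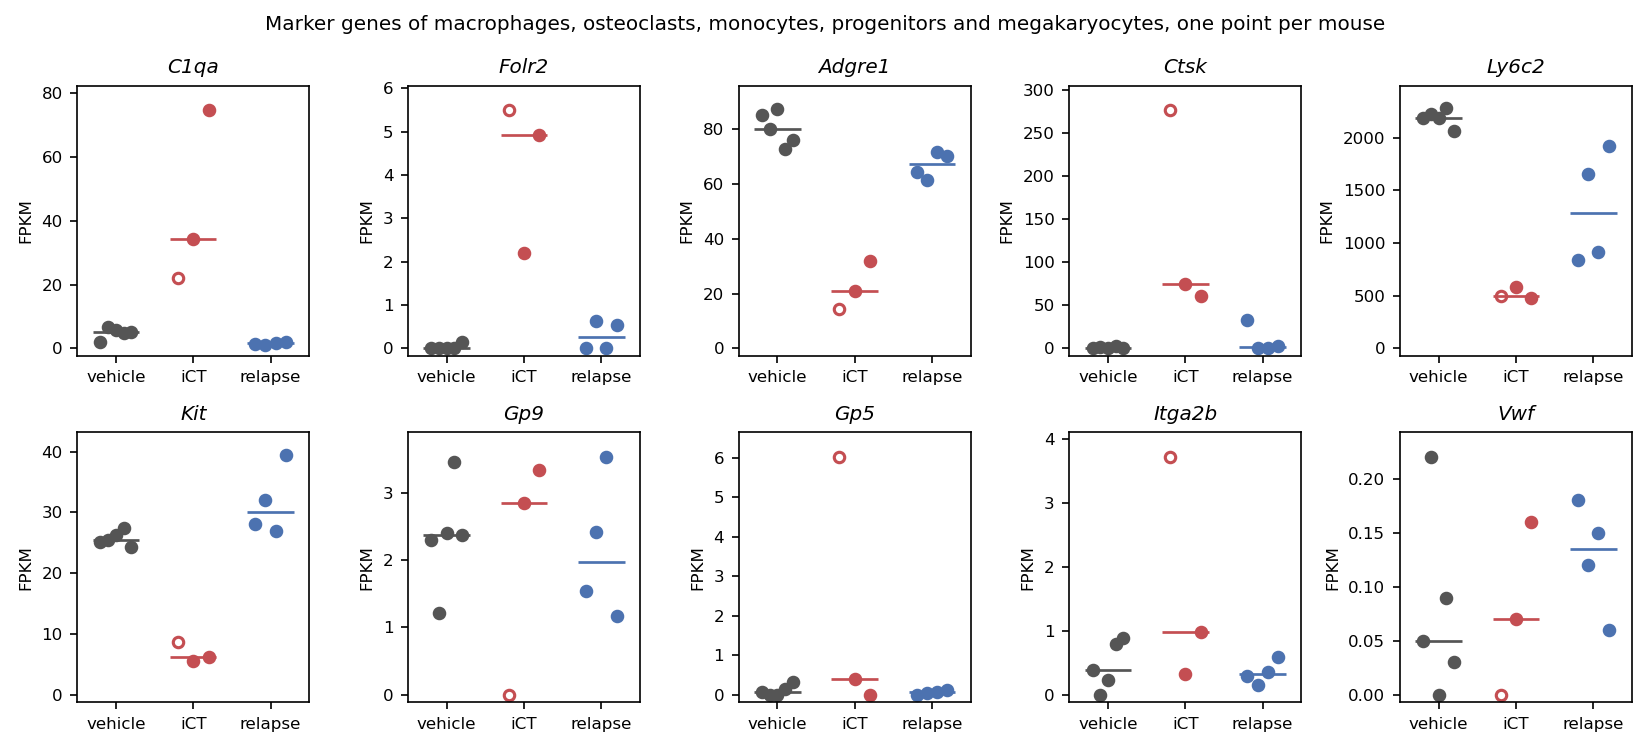
FPKM (linear axes, each panel on its own scale) of marker genes, with 1 point per mouse, group medians as lines and iCT mouse 1 as the open point: C1qa, Folr2 and Adgre1 for macrophages, Ctsk for osteoclasts, Ly6c2 for monocytes, Kit for progenitors, Gp9, Gp5, Itga2b and Vwf for megakaryocytes. C1qa is 21.9 to 74.6 FPKM in the iCT mice and at most 6.78 in the others; Gp5 and Itga2b reach 6.02 and 3.72 in iCT mouse 1, and Vwf is at or below 0.22 in all libraries.

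The genes whose pattern over the 12 libraries was most like that of each ligand were found by the mean absolute difference of standardised log2(FPKM + 1), where 0 is an identical pattern. Over the 11011 tested genes outside the set, the median distance to the nearest gene was 0.26, and 5% of genes had one nearer than 0.13. Nearest to Ccl8 were Apoe (0.22), Ctsk (0.25) and Abhd11 (0.26), and without iCT mouse 1 Bax (0.22), Abhd11 (0.25) and Cxcl16 (0.27). Nearest to Pf4 were Lgmn (0.22), C1qb (0.28) and Tgfbr2 (0.29), of which Lgmn and Tgfbr2 stayed among the nearest 3 without iCT mouse 1. For Ccl3 they were Hp1bp3 (0.19), Dapp1 (0.22) and Papss1 (0.26), of which Hp1bp3 stayed. For Ccl6 they were Ccnd2 (0.33), Ccl12 (0.34) and Bax (0.37), and for Ccl2 Slc7a1 (0.31), Lpl (0.33) and Marveld1 (0.34). Those of Ccl9 were Afg3l2 (0.38), B3gnt3 (0.41) and Tra2b (0.41), and those of Ccl4 were 1700008O03Rik (0.43), Desi1 (0.45) and Jun (0.46). Without iCT mouse 1, Ccnd2 stayed among the nearest 3 of Ccl6 and 1700008O03Rik among those of Ccl4. All 3 were replaced for Ccl2, by Stab1, Hip1r and Ctif, and for Ccl9, by Pdgfrl, Rcn3 and Nr2c2ap. These distances are descriptions of 12 libraries that share groups and depth.

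Cxcl15 had the closest matches of the 8 tested ligands, Ptprb (0.07), Podn (0.09) and Rsph4a (0.11), the same 3 genes with and without iCT mouse 1. Ptprb stood at 5.52, 2.87, 2.79, 2.31 and 2.42 FPKM in vehicle mice 1 to 5, 6.15, 3.04 and 3.69 in iCT mice 1 to 3 and 1.63, 0.37, 0.52 and 1.94 in relapse mice 1 to 4. Podn stood at 46.1, 19.6, 16.3, 13.1 and 17.9 FPKM in vehicle, 56.4, 20.3 and 36.9 in iCT and 11.2, 3.45, 4.88 and 11.8 in relapse. Like Cxcl15, both were highest in iCT mouse 1 and vehicle mouse 1 and lowest in relapse mice 2 and 3. These genes were picked by their likeness over the same libraries, so a match between mice of 1 group is part of that choice and not a further result.

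The sequences upstream of the genes were read for the ligands with an entry in the RefSeq promoter table (GRCm38.p6), which matched 8 of the 10, Ccl8, Ccl3, Ccl6, Ccl9, Cxcl2, Cxcl15, Pf4 and Ppbp. In the 250 bases before the annotated start, 6 short motifs were searched on both strands, and overlaps between them were allowed. The share of all 32851 promoters of this length that hold a match is given with each. The TATA box was searched as TATAAA, found in 12.4% of promoters. The NF-kappaB core was searched as GGAATTTCC and is in 0.3%, and the core of PU.1 and other ETS factors was searched as GAGGAA and is in 23.3%. The letters for AP-1 were TGANTCA, with 6.7% of promoters. Those for C/EBP were TTGCNNAA, with 9.6%, and those for GATA factors were AGATAA, with 10.0%. The regions of Ccl8 and Pf4, the ligands with the largest differences in iCT, and of Ccl3, which differed the other way, are printed 5′ to 3′ on the strand of the gene with motif matches in capitals.
Ccl8 (chr11:82114935-82115184, plus strand): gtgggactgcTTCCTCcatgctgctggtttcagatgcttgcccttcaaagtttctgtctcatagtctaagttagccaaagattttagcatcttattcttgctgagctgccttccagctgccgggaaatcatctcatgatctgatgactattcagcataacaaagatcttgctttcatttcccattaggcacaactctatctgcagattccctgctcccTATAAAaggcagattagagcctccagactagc
Pf4 (chr5:90772185-90772434, plus strand): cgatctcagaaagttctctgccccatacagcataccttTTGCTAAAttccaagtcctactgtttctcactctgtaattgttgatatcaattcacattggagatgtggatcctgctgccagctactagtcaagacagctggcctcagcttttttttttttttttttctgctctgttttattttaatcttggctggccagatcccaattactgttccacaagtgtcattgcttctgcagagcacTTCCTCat
Ccl3 (chr11:83649379-83649628, minus strand): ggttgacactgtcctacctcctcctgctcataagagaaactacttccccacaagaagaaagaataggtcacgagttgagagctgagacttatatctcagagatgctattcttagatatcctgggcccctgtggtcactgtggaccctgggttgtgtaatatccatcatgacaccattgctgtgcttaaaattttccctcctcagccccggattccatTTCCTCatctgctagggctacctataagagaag
The Ccl8 region has a TATAAA match beginning 32 bases before the start and a GAGGAA match 240 bases before it. All GAGGAA matches printed here lie on the other strand, so the capitals read TTCCTC. Pf4 has a GAGGAA match 8 bases before the start and a TTGCNNAA match 212 bases before it. Ccl3 has a GAGGAA match 33 bases before the start. A GAGGAA match is thus in all 3 regions, in ligands that differed in opposite directions.

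The NF-kappaB core, present in 0.3% of promoters, was found among the 8 in Cxcl2, 96 bases before the start. Only the exact letters GGAATTTCC were searched, so another form of the site in the other regions would be missed. Cxcl2 was listed at 0 in 10 of 12 libraries, and a link to the match was not tested. The match is shown in capitals in its surroundings (chr5:90903777-90903837, plus strand).
Cxcl2: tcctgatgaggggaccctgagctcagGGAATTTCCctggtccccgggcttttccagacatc
TATAAA was also found in Ccl9, Cxcl15 and Ppbp, and TGANTCA in Ccl9 and Ppbp. Ccl6 had none of the 6 motifs in this window. The matches are letters in a window, and binding was not measured.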

How the data were processed

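RNA-seq was made from sorted GFP-positive cells of 12 mice, with RNA extracted by a Qiagen RNeasy micro kit and libraries from NEB kits, per the labels' protocols. The authors deposited 1 Cufflinks table per mouse in FPKM with 95% interval bounds, per the file headers; STAR, Cufflinks and mm9 are named in the submitters' processing notes, without versions. The loci fit GRCm38: of 23266 symbols also in GENCODE M21, 22980 (98.8%) overlapped the gene of the same name, so that build is given. No source used here gives multi-mapping options or strandedness. The 24883 entries were joined by symbol and locus, and 2 with a failed estimate were left out. An exact 0 can be a failed estimate, so ligands with zeros are given by library.

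Fragments behind a value were implied from its interval, as (2 × FPKM / half-width) squared, and cover counting error only. Groups came from the sample titles. limma 3.58.1 in R 4.3.3 was fitted to log2(FPKM + 1), with group as the only term, a variance trend and Benjamini-Hochberg adjustment over 11019 genes, two-sided, and was tested on simulated data. SDs are over mice.

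The 10 ligands and the gene lists were chosen with earlier results of these data known. Named genes were all 10 ligands, each other ligand or receptor past the threshold or among the 3 most abundant, up to 4 genes past the threshold with the smallest p from each other list, the 3 genes most alike in pattern, and markers beside a result. Grk2, Ly6g, Ighm, Hbb-bt and Ahsp were not matched by symbol. Alternatives were pseudocounts of 0.1 and 0.5, no filter, an FPKM minimum of 5, scaling by median of ratios or quantiles, array weights (statmod 1.5.0), no variance trend, only the groups compared, a replicate block and leaving out each library.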

Additional observations from a re-analysis of the deposited data

Results flagged for a closer look

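Among 48 groups of 4 or 5 mice with any spread, over the 10 ligands and 15 other named genes, 3 had a mouse far from the others by Dixon's test, and chance flags about 5% of groups. Ccl3 was 19.4 FPKM in relapse mouse 3, against 12.1 to 13.01 in the other relapse mice. Cxcl15 stood at 32.5 FPKM in vehicle mouse 1, while its group otherwise ranged from 10.2 to 14.3. Ppbp stood at 2.98 FPKM in vehicle mouse 5, with 0 to 0.48 in the rest of the group.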

How the results depend on the processing

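The 8 fitted ligands and the called list genes gave 47 log2 changes, 31 of them called, with 1004 values under alternatives. Of these values 0 reversed a called change and 138 lost a call, 15 of ligands and 123 of list genes. The same 4 ligands stayed past the threshold in iCT against vehicle under both pseudocounts, both scalings, the filter at an FPKM of 5 and no variance trend. Array weights lost Ccl3 and put Ccl6 past it. Ccl9 was lost with no filter, with the replicate block and in the fit of only the groups compared. In relapse against iCT, Ccl3, Ccl8, Cxcl15 and Pf4 stayed past the threshold under every setting but the fit of only the groups compared, which lost Cxcl15. In relapse against vehicle, array weights put 3 ligands (Ccl3, Ccl9 and Cxcl15), 1 gene of the other ligand and receptor lists and 971 genes in all past the threshold, the fit of only the groups compared put 2 ligands (Ccl9 and Cxcl15) and 612 genes past it, and no filter put 1 gene past it. In iCT against vehicle, 6 other ligand and receptor genes were past the threshold, but 2 in the fit of only the groups compared, and the count of all genes was 457 with array weights and 351 in that fit. In relapse against iCT, 4 other ligand and receptor genes were past it, but 2 with a pseudocount of 0.1, with no filter, with the filter at 5 and with median-of-ratios scaling, and 1 in the fit of only the groups compared; all genes numbered 603 with array weights and 252 in that fit. The main counts of 6 and 4 other ligand and receptor genes include Cxcl16, which passed the filter through the iCT libraries alone. The cause of the moves between settings was not tested.

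Mice with the same number did not vary together (correlations of deviations -0.0911 to 0.099). The fit with a replicate block on mouse number had 2 other ligand and receptor genes and 197 genes in all past the threshold in iCT against vehicle, and 2 and 372 in relapse against iCT.

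With each library left out in turn, counts in iCT against vehicle were 3 to 5 ligands, 4 to 6 other ligand and receptor genes and 569 to 2722 genes in all, the highest without iCT mouse 2 (686 without iCT mouse 1, 618 and 569 without vehicle mice 3 and 5). In relapse against vehicle they were 0, 0 and 0 to 5, the highest without iCT mouse 1. In relapse against iCT they were 4 to 5, 2 to 3 and 529 to 1855, the highest without iCT mouse 3, with 593, 529, 583 and 536 without relapse mice 1 to 4. Depth limits Cxcl2, Ppbp, Ccl2 and Ccl4, Ccl8 and Pf4 in vehicle and relapse, and every ligand in iCT mouse 1.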
